A study of Mus musculus with 64 samples.

Results

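CD3 was measured as a surface protein on CD4 T cells of the inflamed mouse colon. Cells were stained with antibodies that carry sequence tags, so that the bound antibody is read as a count per cell. CD3 was 1 of 11 antibodies in the panel, beside the lymphoid proteins CD4, CD90.2, CD127, KLRG1 and CD103 and the myeloid proteins Ly-6C, Ly-6G, CD64, CD11b and CD11c. CD4 T cells were taken as cells that carried CD4 and CD90.2 and lacked CD11b, CD11c and CD64, with no threshold on CD3. The thresholds were 0.652 for CD4 and 2.035 for CD90.2 on the centred log ratio (CLR), which is the natural log of a count plus 1, minus the mean of that log over the cell's 11 antibodies. CD3 is 1 of the 11 and enters the scale of the gate through that mean. Its part in the choice of cells was not tested. This gate held 58099 of 130442 cells kept, out of 131917 barcodes.

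All 9 libraries came from colons of SCID mice under the label of CD45RBhi T cell transfer, and each held the EpCAM- CD45+ immune fraction pooled from 3 animals. Anti-IL-12p40 blocks a subunit that the cytokines IL-12 and IL-23 share, and 1 library came from mice treated with it from day 10 and sampled at week 7. The 8 libraries without that antibody were labelled weeks 0, 1, 2, 3, 4, 5, 6 and 7. The labels give the transfer for week 0 too and do not say whether those animals had already received T cells. The labels of this fraction give no age and no strain of the T cell donors. CD45RBhi T cells are a naive fraction that causes colitis in hosts without T cells. SCID hosts make no T or B lymphocytes of their own and keep innate cells, innate lymphoid cells among them. The series' other 55 samples were not analysed here.

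CD3 is the signalling part of the T cell receptor complex. Its chains are assembled with the receptor inside the cell, reach the surface with it, and pass on the signal when the receptor binds a peptide on an MHC molecule. CD4 is the coreceptor that binds MHC class II, and CD90.2 is a membrane glycoprotein of T cells that innate lymphoid cells also carry. Surface CD3 is known to be drawn into the cell after the receptor is engaged, and it is the usual mark that separates T cells from innate lymphoid cells.

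The libraries held 12914066 to 28723452 antibody counts. Gated cells had a median total of 1892 counts in the treated library, 2023 counts at untreated week 0 and 835 to 1496 counts at untreated weeks 1 to 7. They numbered 8154 with anti-IL-12p40, and without it 524 at week 0, 907 at week 1 and 6590 to 10253 in the libraries of weeks 2 to 7. Pairs of libraries shared 30 to 110 barcodes, and 0 to 36 among gated cells. No week has a second untreated pool, so how much pools of one week vary cannot be measured, and intervals cover counting error only.

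The cells that passed the gate carried almost no CD3 at week 0, carried it on part of the cells at week 1, and carried it on most cells in every later library. Week 0 had a median of 2 CD3 counts per gated cell, week 1 had 16, week 2 had 37, week 3 had 71, week 4 had 50, week 5 had 54, week 6 had 31 and week 7 had 58. In counts, week 3 stood highest and weeks 0, 1 and 6 stood lowest. Week 0 had a median CLR of -1.80, week 1 had 0.47, week 2 had 1.01, week 3 had 0.82, week 4 had 0.92, week 5 had 0.75, week 6 had 0.21 and week 7 had 0.94. On this scale the 5 libraries of weeks 2, 3, 4, 5 and 7 lay within 0.75 to 1.01, week 6 lay below week 1, and week 2 was the highest. Of all antibody counts on gated cells, CD3 made up 0.0895% at week 0, 2.51% at week 1 and 4.20% to 6.21% in weeks 2, 3, 4, 5 and 7. Week 6 had 2.22%.

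**Figure D1:**
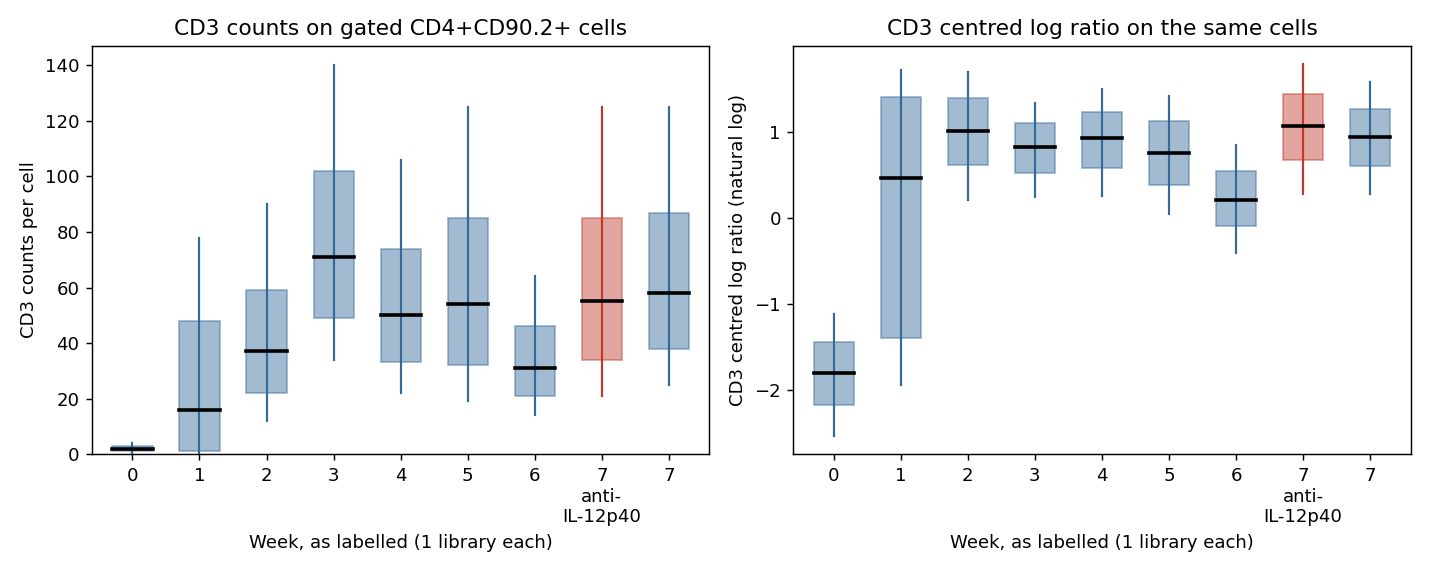
CD3 on gated CD4+CD90.2+ cells in each of the 9 libraries, as counts per cell and as CLR, with the treated library in red beside untreated week 7. Median counts run from 2 at week 0 to 71 at week 3, and week 6, at 31, lies below its neighbours at 54 and 58.

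A cell was called CD3+ above a CLR of -0.16, where a cell was as likely to belong to the lower as to the upper of 2 normal distributions fitted to cells of all libraries. The distributions lay 3.20 joint standard deviations apart (Ashman's D). CD3+ cells were 1 of 524 gated cells at week 0, which is 0.191% (0.00483 to 1.06, exact binomial 95% interval). They were 53.1% (49.8 to 56.4) at week 1. Week 2 had 95.1%, week 3 had 97.5%, week 4 had 97.8%, week 5 had 94.6%, week 6 had 78.5% (77.6 to 79.4) and week 7 had 97.9% (97.6 to 98.2). These shares depend on the threshold in 3 libraries. With thresholds fitted within each library, the CD3+ share was 41.9% at week 0, 70.4% at week 1 and 92.4% at week 6, with the CD3 threshold at -1.72, -1.29 and -0.46 there. The distributions it divided were poorly separated at weeks 0 and 1 (Ashman's D 1.54 and 0.760), and the median CD3 count stayed at 2 at week 0 and 31 at week 6. The label of a T cell population thus holds for most gated cells at weeks 2 to 7 and does not hold at week 0, where the median was 2 CD3 counts.

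Cells also differed among themselves. At week 0, 18.3% of gated cells had no CD3 count, and 11.1% had none at week 1, against 0.670% at week 2 and at most 1 cell in each of weeks 3 to 7. The 90th percentile of the CD3 count was 4.12 to 7.5 times the 10th over weeks 2 to 7, least in week 3 and most in week 2. The interquartile range of the CLR was 2.78 at week 1 and 0.57 to 0.77 at weeks 2 to 7, so the cells of week 1 were the most spread. Among CD3+ cells alone, week 1 had a median CLR of 1.36, week 2 had 1.04, week 3 had 0.83, week 4 had 0.93, week 5 had 0.79, week 6 had 0.34 and week 7 had 0.95. The highest of these CLR values was that of week 1, but its CD3+ cells did not have the highest counts. Their median was 47 CD3 counts, below the 72, 51, 56 and 58 of weeks 3, 4, 5 and 7. It was above the 38 and 36 of weeks 2 and 6.

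**Figure D2:**
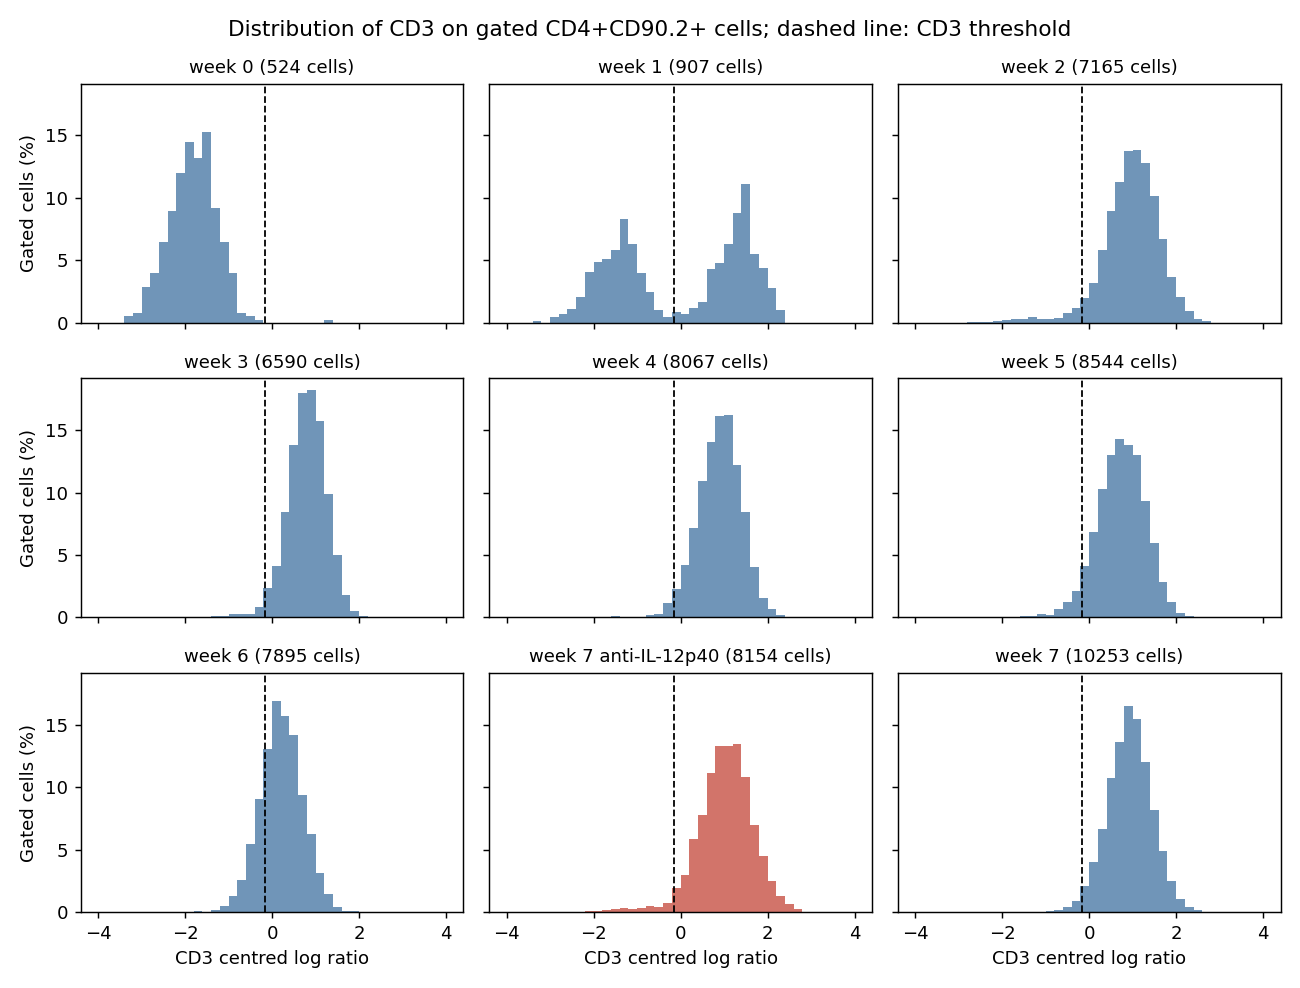
Distribution of CD3 CLR over the gated cells of each library, with the CD3 threshold of -0.16 as a line. Week 0 lies below the threshold except for 1 of 524 cells, week 1 has separate peaks on both sides, and at week 6 the threshold cuts the lower flank of 1 peak.

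Deep and shallow cells of one library differed little in CLR after week 1. Gated cells were ranked by total antibody counts into 4 equal groups. The median CLR of CD3 in the deepest group minus that in the shallowest was -0.09 to 0.21 over weeks 2 to 7. That is smaller than the step between 0.21 at week 6 and 0.75 at week 5. The difference was larger in the first libraries, at -0.40 at week 0 and -0.60 at week 1. Thinning each cell to 200 counts lowered the median CLR in each library of weeks 2 to 7. It went from 1.01 to 0.62 at week 2 and from 0.94 to 0.62 at week 7. Week 4 was then the highest, at 0.71, and week 6 had 0.02.

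Whether CD3 moved with time was tested by rank correlation with week over the 8 untreated libraries, with all 11 antibodies computed the same way. CD3 did not pass on any scale. For the median CLR, Spearman's rank correlation was 0.310 (two-sided exact permutation p = 0.462, Benjamini-Hochberg adjusted p = 0.564, n = 8) and Pearson's r was 0.539 (exact permutation p = 0.165, adjusted p = 0.364). For the median count, the rank correlation was 0.595 (exact permutation p = 0.132, adjusted p = 0.419) and r was 0.631 (exact permutation p = 0.0960, adjusted p = 0.381). Of the 11 antibodies, 0% passed by the exact test of the rank correlation on the CLR, with 2 at an unadjusted p below 0.05, and 0% on the count, with 1. Pearson's r gave the same counts on both scales.

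For the CD3+ share, the rank correlation was 0.619 (exact permutation p = 0.115, adjusted p = 0.230) and r was 0.682 (exact permutation p = 0.0475, adjusted p = 0.0949), where 16.7% of the 6 antibodies outside the gate passed by rank correlation. Weeks 0 and 7 lie farthest from the median week. Without both, the rank correlation was -0.371 for the CLR, 0.257 for the count and 0.0857 for the share (exact permutation p = 0.497, 0.658 and 0.919), and r was -0.342, 0.291 and 0.380. Over weeks 2 to 7 alone, the rank correlation was -0.371 for the CLR, 0.0286 for the count and 0.0857 for the share (exact permutation p = 0.497, 1 and 0.919). The positive sign for the CLR therefore rests on the first libraries, and without week 0 alone it was -0.0357.

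Set against CD4 on the same cells, CD3 was highest at week 3 and lower at both ends. The sum of CD3 counts over gated cells divided by the sum of CD4 counts is called the ratio of CD3 to CD4 here. Week 0 had a ratio of 0.00596, week 1 had 0.137, week 2 had 0.274, week 3 had 0.406, week 4 had 0.331, week 5 had 0.209, week 6 had 0.147 and week 7 had 0.213. Weeks 5 and 7 thus had lower ratios than weeks 2, 3 and 4 although their median CD3 counts, 54 and 58, lay between those of weeks 2 and 3. CD4 was higher in those libraries, with a median of 265 counts at week 5 and 275 at week 7, against 141 to 175 at weeks 2 to 4.

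The ratio had no tested relation with week. The rank correlation was 0.310 (exact permutation p = 0.462, adjusted p = 0.715 over 10 antibodies, n = 8) and r was 0.288 (exact permutation p = 0.490, adjusted p = 0.848), where 10% of the antibodies passed by rank correlation and none by r, with 1 at an unadjusted p below 0.05 by each. Without weeks 0 and 7, the rank correlation was 0.0286 and r was -0.111 (exact permutation p = 1 and 0.836). Over weeks 2 to 7, the rank correlation was -0.657 (exact permutation p = 0.175, adjusted p = 0.438) and r was -0.686 (exact permutation p = 0.147). The ratio to CD90.2, made the same way, was 0.00118 for week 0, 0.0361 for week 1, 0.0702 for week 2, 0.0841 for week 3, 0.121 for week 4, 0.0809 for week 5, 0.0336 for week 6 and 0.0726 for week 7. With CD90.2 as the divisor the highest week was 4, not 3, and week 6 lay below week 1.

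**Figure D3:**
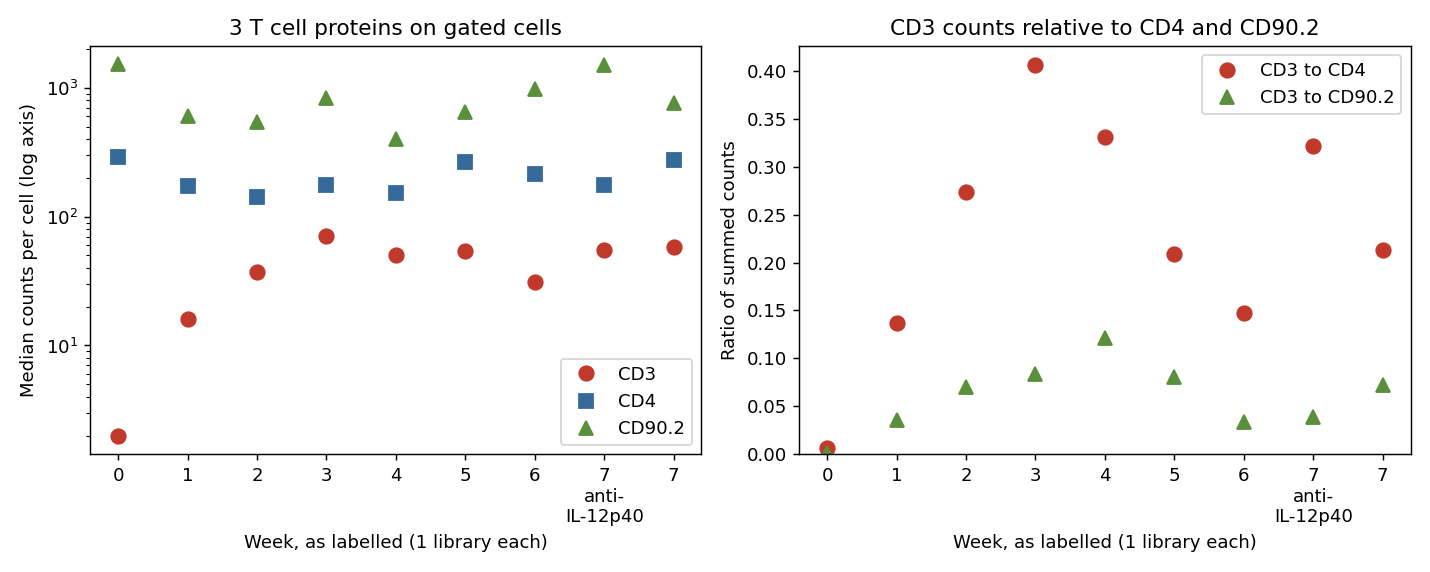
Summed CD3 counts over summed CD4 counts and over summed CD90.2 counts on gated cells, by library. The ratio to CD4 peaks at 0.406 at week 3 and the ratio to CD90.2 at 0.121 at week 4, and the treated library is above untreated week 7 for the first and below it for the second.

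At week 1 the gate held cells with and cells without CD3, and they differed in CD127, the interleukin-7 receptor alpha chain. The 482 CD3+ cells had a median of 47 CD3 counts and the 425 CD3- cells a median of 1. CD127 had a median of 4 counts on CD3+ cells and 11 on CD3- cells, and 53.1% of CD3+ cells were CD127+, against 95.3% of CD3- cells. The other gate proteins were close between them. CD4 had a median of 176.5 counts on CD3+ cells and 159 on CD3- cells, CD90.2 had 607 and 609, and the total was 954 and 923 counts.

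Of the 523 CD3- cells of week 0, 96.6% were CD127+, with a median of 22 CD127 counts. KLRG1, which some innate lymphoid cells and effector T cells carry, was present on 9.34% of CD3+ and 10.4% of CD3- cells at week 1. CD127 had less separable components than CD3 (Ashman's D 1.56), so its threshold divides cells less sharply. All gated cells carry CD90.2 by the gate, so it does not set the CD3- cells apart. CD127, which innate lymphoid cells carry, was on 95.3% of the CD3- cells of week 1 but also on 53.1% of the CD3+ cells. No cell type name is therefore given to the CD3- cells here. Restricting week 1 to CD127- cells left a median of 45.5 CD3 counts and 91.9% CD3+ cells.

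**Figure D4:**
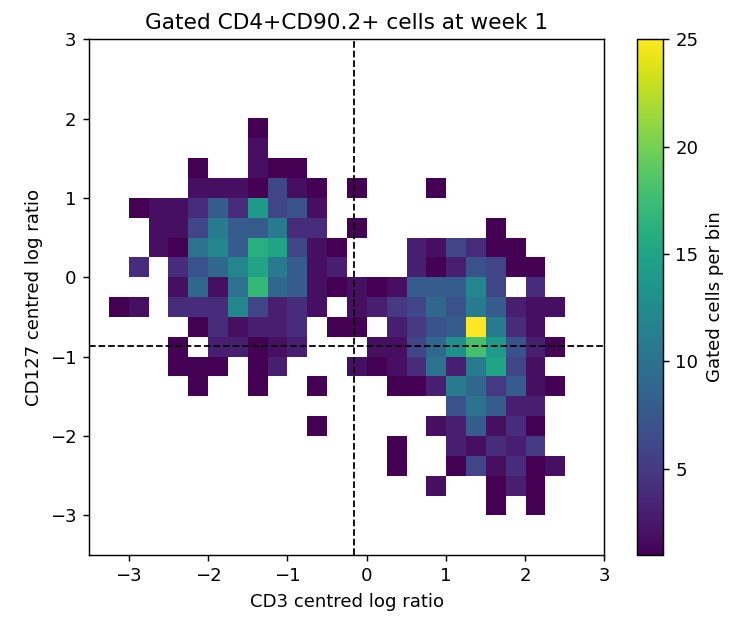
CD3 CLR against CD127 CLR for the gated cells of week 1, coloured by the number of cells per bin, with the thresholds as lines. The 482 CD3+ cells lie apart from the 425 CD3- cells, 95.3% of which are above the CD127 threshold.

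Week 6 stood below its neighbours over the whole distribution of cells. Its 10th, 50th and 90th percentiles were 14, 31 and 64 CD3 counts, against 19, 54 and 125 at week 5 and 25, 58 and 125 at week 7. The median count was 0.574 times that of week 5 and 0.534 times that of week 7. The ratio to CD4 was 0.704 times that of week 5 and 0.692 times that of week 7. The 1694 cells called CD3- at week 6 had a median of 17 CD3 counts, against 1 on the CD3- cells of week 1, and their CD4 median of 215 counts was close to the 216 on CD3+ cells.

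The low level at week 6 was also seen among cells of matched total counts. Among cells with 500 to 2000 counts the median CD3 count was 28 at week 6, against 49 at week 5 and 52 at week 7. With each cell thinned to 200 counts it was 4, against 9 in both neighbours, and 69.0% of thinned cells were CD3+, against 89.6% at week 5 and 93.1% at week 7. CD90.2, which is part of the total, was higher at week 6, with a median of 981 counts against 649 at week 5 and 767 at week 7. Its part in the values at matched totals was not tested. The ratio of CD3 to CD4 was 0.147 on gated cells at week 6 and 0.150 on CD4+CD90.2+ cells that the gate left out for a myeloid protein. Week 6 is 1 pool, so its animals, its staining and its time point cannot be told apart.

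Within the gate, CD3 differed with the other lymphoid proteins, and the differences are given as descriptions over libraries. CD127+ cells had a lower ratio of CD3 to CD4 than CD127- cells in 6 of 6 libraries of weeks 2 to 7, at 0.743 to 0.797 times its value. At week 7, for example, the median was 55 CD3 counts on CD127+ cells and 65 on CD127- cells. KLRG1+ cells had a higher ratio than KLRG1- cells in 6 of 6 libraries, at 1.15 to 1.36 times its value. The median at weeks 2, 5 and 7 was 42, 63 and 62 CD3 counts on KLRG1+ cells and 35, 53 and 57 on KLRG1- cells. It was nearly the same at weeks 3 and 4, with 72 against 71 and 51 against 50, and at week 6 it was 31 on both. The part of CD4 counts in the higher ratio was not tested. The median CLR, into which KLRG1 itself enters, did not follow the ratio. It was higher on KLRG1+ than on KLRG1- cells at weeks 5 and 7 (0.82 against 0.75 and 0.96 against 0.93). It was lower at weeks 2, 3, 4 and 6, at 0.99 against 1.01, 0.77 against 0.83, 0.88 against 0.92 and 0.17 against 0.22.

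CD103 is an integrin that holds T cells at the epithelium. CD103+ cells had a ratio of CD3 to CD4 of 0.810 to 0.916 times that of CD103- cells, lower in 6 of 6 libraries of weeks 2 to 7. The median at week 5 was 46 CD3 counts on CD103+ cells and 56 on CD103- cells. The CD3- cells of weeks 5 and 7 were CD103+ in 55.1% and 54.5% of cases, against 23.2% and 24.4% of the CD3+ cells. CD103 itself enters the CLR by which cells were called CD3+, and its part in this split was not tested. To keep the compared protein out of the scale, CD3 was also centred on the other 9 antibodies. The median then differed by -0.16 to -0.03 for CD127+ minus CD127- cells, by 0.16 to 0.35 for KLRG1+ minus KLRG1- cells and by -0.20 to -0.10 for CD103+ minus CD103- cells, with the same sign in all 6 libraries. The first weeks differed in part, with few cells. At weeks 0 and 1, the ratio on CD103+ cells (12 and 28 cells) was 1.61 and 1.39 times that on CD103- cells, while the centred difference was -0.52 and 0.63. For KLRG1 (57 and 89 KLRG1+ cells) the centred difference was -0.20 and -0.45, while the ratio was 1.29 and 1.04 times that on KLRG1- cells. CD127 kept its direction, with a ratio of 0.831 and 0.352 times and a centred difference of -0.04 and -2.52. KLRG1+ cells had fewer total counts than KLRG1- cells in 5 of these libraries, all but week 2, and CD127+ and CD103+ cells had more than their counterparts in all 6. The part of depth in these differences was not tested beyond that centring.

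Cells that should lack CD3 give the background of the antibody. CD3 on gated cells was compared with 6 other phenotypes defined without a CD3 threshold. Of these, the cells of no phenotype are not such a background, with 20.3% to 74.3% CD3+ over weeks 2 to 7. They held 2286 cells at week 5, among them 1674 CD4+ cells without CD90.2 or myeloid proteins. The comparison used paired sign flips over the 8 untreated libraries, for which the smallest two-sided p is 0.00781. Over weeks 2 to 7, median CLR averaged 0.77 ± 0.29 (SD, n = 6 libraries) on gated cells. It averaged -0.09 ± 0.49 on cells of no phenotype, -0.93 ± 0.14 on CD11c+CD64- cells, which include dendritic cells, and -0.97 ± 0.14 on CD64+Ly-6C- cells, the phenotype of macrophages. It averaged -1.03 ± 0.22 on CD4-CD90.2+ cells, -1.05 ± 0.12 on CD11b+Ly-6C+ cells, the phenotype of monocytes, and -1.11 ± 0.28 on CD11b+Ly-6G+ cells, which neutrophils would be. The last 5 of these differed from their neighbours in this order by less than their SD.

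Gated cells were higher than all 6, with week 0 as the exception for 5 of them. Against CD11b+Ly-6G+ cells the CLR was higher by 1.75 ± 0.70 (SD, 8 of 8 libraries, exact permutation p = 0.00781, adjusted p = 0.0188). Against CD11b+Ly-6C+, CD64+Ly-6C-, CD4-CD90.2+ and CD11c+CD64- cells it was higher by 1.60 ± 0.72, 1.52 ± 0.75, 1.51 ± 0.85 and 1.47 ± 0.75, each in 7 of 8 libraries (exact permutation p = 0.0156, adjusted p = 0.0188 for each). Against cells of no phenotype it was higher by 0.73 ± 0.72 in 7 of 8 libraries (exact permutation p = 0.0391, adjusted p = 0.0391). That last call was lost when any 1 of weeks 1 to 7 was left out, with an adjusted p of up to 0.0781 by the exact permutation test.

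**Figure D5:**
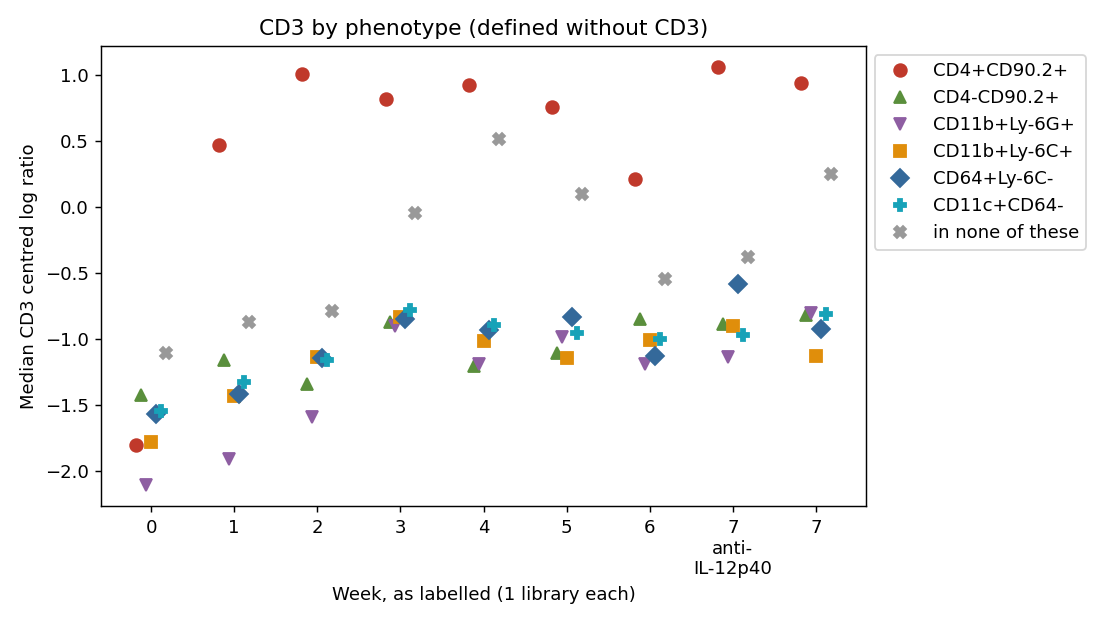
Median CD3 CLR of gated CD4+CD90.2+ cells and of the 6 other phenotypes in each library. Gated cells are highest in each untreated library of weeks 1 to 7 and among the lowest at week 0, where their CLR is -1.80.

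On raw counts the background was not always low. Over weeks 2 to 7, median CD3 counts were 31 to 71 on gated cells and 2 to 39 on the 4 myeloid phenotypes. At week 3 gated cells had 71 CD3 counts of a total of 1459, and CD11b+Ly-6G+ cells had 39 of a total of 4231. At week 7 gated cells had 58 of a total of 1326, and CD11b+Ly-6G+ cells had 31 of a total of 3805. In those weeks no other myeloid phenotype came as near to gated cells in CD3 counts. CD11b+Ly-6C+ cells had higher totals still, 5767.5 at week 3 and 4034 at week 7, with medians of 20 and 13 CD3 counts. As a share of counts, CD3 was 2.22% to 6.21% on gated cells and 0.330% to 2.26% on the myeloid phenotypes. The CD3+ share was 78.5% to 97.9% of gated cells and 1.34% to 27.7% of the cells in a myeloid phenotype. Doublets were not removed, and their part in those cells was not tested.

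Cells just inside the gate were set beside cells just outside it. Within 0.5 CLR of the CD4 threshold, the median was 10 CD3 counts inside and 1 outside at week 2, 45 and 5 at week 5, and 43 and 5.5 at week 7. Those of week 5 rest on 23 cells inside and 33 outside, and those of week 7 on 31 and 22. At week 3 the values were closer, with 59.5 inside and 52.5 outside. At the CD90.2 threshold the median was 10 CD3 counts inside and 2 outside at week 2, 54 and 40 at week 3, 43 and 41 at week 4, 33 and 24 at week 5 and 41 and 37 at week 7. At week 6 the order of the counts was turned, with 18 on 136 cells inside and 22 on 31 cells outside. The median CLR was not turned there, at -0.11 inside and -0.22 outside. Cells with CD4 and without CD90.2 or myeloid proteins numbered 1674 at week 5, of which 75.4% were CD3+. At week 5 the ratio of CD3 to CD4 was 0.209 on gated cells and 0.105 on these cells, and the median total was 1224 counts on gated cells and 564 on these cells. At week 3 the ratio was 0.406 on gated cells and 0.231 on these cells. The gap was smaller at week 4, with 0.331 on gated cells and 0.296 on these cells, and at week 7, with 0.213 and 0.186. It was turned at week 6, with 0.147 on 7895 gated cells and 0.189 on 41 of these cells.

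The panel proteins most like CD3 were named by rank correlation. Across the 8 untreated libraries, the 3 highest for median CLR were Ly-6G (rank correlation = 0.452, r = 0.543), Ly-6C (rank correlation = 0.262, r = 0.155) and KLRG1 (rank correlation = 0.0714, r = 0.0950). None of them passed (exact permutation p = 0.267, 0.536 and 0.882 for the rank correlation, adjusted p = 0.556, 0.596 and 0.882 over 10 antibodies, and adjusted p = 0.392, 0.817 and 0.858 for r). Without weeks 0 and 6, whose CD3 lay farthest from the median, the rank correlation was 0.0857 for Ly-6G, 0.314 for Ly-6C and 0.20 for KLRG1, and r was 0.235, 0.414 and 0.146. The antibodies of one panel share each cell's mean, so these values are not independent of one another. Ly-6G was low on gated cells, with medians of 1 to 14 counts and at most 0.110% Ly-6G+ cells in an untreated library.

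Across cells within a library, CD3 counts went most closely with CD4, CD90.2 and Ly-6C counts. The median rank correlation over libraries was 0.520 for CD4 (0.226 to 0.642), 0.474 for CD90.2 (0.166 to 0.562) and 0.387 for Ly-6C (0.154 to 0.475). Counts of one cell share its depth. With both proteins centred on the other 9 antibodies, the median rank correlation was 0.379 for CD4, 0.283 for CD90.2 and 0.203 for Ly-6C. On that scale KLRG1, at 0.237, came before Ly-6C. CD127 was the most opposed to CD3 at week 1, with a rank correlation of -0.345 between counts.

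With anti-IL-12p40 at week 7, raw CD3 counts per gated cell were close to those of untreated week 7, and CD4 was lower. The median was 55 CD3 counts in the treated library and 58 in the untreated one. The mean was 66.2 (66.0 to 66.4) CD3 counts in the treated library and 68.3 (68.1 to 68.5) in the untreated library, a ratio of 0.969 (0.965 to 0.972). Treated cells had higher totals, with a median of 1892 counts against 1326. CD90.2 is part of that total and averaged 1711 counts in the treated library and 940.3 in the untreated library. At a matched total the ratio of mean CD3 counts was lower, at 0.885 among cells with 500 to 2000 counts and 0.747 with cells thinned to 200 counts. The part of CD90.2 in these lower values was not tested. With 1 library each there is no test, and a difference was called only at 1.5-fold or more and outside untreated weeks 5 to 7. By mean counts, 45.5% of the 11 antibodies were called, 18.2% as higher and 27.3% as lower in the treated library, and CD3 was not among them. The 10th and 90th percentiles were 21 and 125 CD3 counts in the treated library and 25 and 125 in the untreated library.

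The ratio of CD3 to CD4 was 0.321 in the treated library and 0.213 in the untreated one, which is 1.51 times as high (1.51 to 1.52), against 0.147 to 0.213 over untreated weeks 5 to 7. It was called, as were 50% of the 10 antibodies set against CD4, 40% as higher and 10% as lower in the treated library. Untreated week 7 is itself the top of the CD3 range of weeks 5 to 7, so that range added nothing to the 1.5-fold rule here. The treated 0.321 lay within the ratios of untreated weeks 2 to 4, which were 0.274 to 0.406. CD4 averaged 206 counts in the treated library and 321 in the untreated library, a ratio of 0.641. The call sits at the edge of the 1.5-fold rule and was lost among cells with 500 to 2000 counts, where the ratio of ratios was 1.43, and with cells thinned to 200 counts, where it was 1.37. CD90.2 averaged 1711 counts in the treated library and 940.3 in the untreated library. The ratio of CD3 to CD90.2 was therefore lower with treatment, at 0.0387 against 0.0726, or 0.533 times. It was not called, since untreated weeks 5 to 7 held values from 0.0336 to 0.0809. Only week 6 of these lay below the treated library, so the missing call rests on that 1 pool.

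The CD3+ share was 96.4% (96.0 to 96.8) of gated cells in the treated library and 97.9% (97.6 to 98.2) in the untreated one. The median CLR was 1.06 in the treated library and 0.94 in the untreated library. CD3 was 3.09% of all antibody counts on gated cells in the treated library and 4.47% in the untreated library. With cells thinned to 200 counts the order of the CLR turned, to 0.55 in the treated library and 0.62 in the untreated library. Among cells with 500 to 2000 counts the order stayed, at 1.10 in the treated library and 0.94 in the untreated library. The sign of the CLR difference thus depended on how the total was matched.

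The ratio of CD3 to CD4 had the same order across the other lymphoid proteins in the treated library as in untreated week 7. The ratio of CD3 to CD4 on CD127+ cells was 0.768 times that on CD127- cells. On KLRG1+ cells it was 1.16 times that on KLRG1- cells, and on CD103+ cells 0.947 times that on CD103- cells. For KLRG1 the median CLR did not keep its order. It was 0.87 on KLRG1+ and 1.11 on KLRG1- cells in the treated library, and 0.96 on KLRG1+ and 0.93 on KLRG1- cells in the untreated library. The 290 CD3- cells of the treated library had a median of 5 CD3 counts, against 14 on the 213 CD3- cells of the untreated one. CD103 was on 37.6% of the CD3- cells in the treated library and on 54.5% of those in the untreated library. The 4 myeloid phenotypes had medians of 3 to 11 CD3 counts in the treated library and 7 to 31 in the untreated library.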

How the data were processed

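The 9 surface protein libraries of SCID mice were used, for which the authors deposited whole-number counts per antibody and barcode with no normalization. The build mm10, Seurat 4.1.1 and Cell Ranger 6.0.2 stand in the submitters' processing notes, and the rule that selected the barcodes is not given in the sources read. Per the labels' protocols, tissue of mice of 1 treatment and time point was pooled.

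In each library, barcodes with under 50 antibody counts and the 1% with the highest totals were dropped. The CD4 and CD90.2 thresholds were those the gate was defined with. The others came from a 2-component Gaussian mixture on 2000 cells per library. No doublet caller was run. Trends used all 40320 orderings of 8 libraries, with a smallest p of 4.96e-05, and p-values measure only the spread between these pools. Each antibody family was adjusted by Benjamini-Hochberg at 0.05. Phenotypes were compared over libraries with at least 50 cells in both. The exact tests and the threshold were tested on simulated data. CD3 was always named, with the lymphoid proteins beside it, the myeloid ones as ranges, and the 3 proteins most like CD3 by rank correlation over libraries and over cells. The Ly-6C, Ly-6G and CD64 values given by name belong to phenotypes or to that rule. The protein, gate, lists and tests were chosen with earlier results of these data known. Alternatives were other count filters, thresholds per library, a stricter gate, no myeloid exclusion, KLRG1+ cells left out, 500 to 2000 counts, thinning to 200 counts (0.107% to 1.12% of gated cells were shallower), each library left out, weeks 1 to 7 and weeks 2 to 7, and other summaries. CD3+ cells alone and CD127- cells alone were chosen after seeing the data. The work used scikit-learn 1.9.0, scipy 1.17.1 and numpy 2.4.6 under Python 3.11.15, with pandas 2.3.3 for tables and matplotlib 3.10.9 for plots.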

Additional observations from a re-analysis of the deposited data

How the results depend on the processing

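No paired analysis was possible because each week and treatment had 1 library and the labels carry no replicate numbers, and the phenotypes alone were paired, within a library. No trend of CD3 with week passed under any alternative run, by the exact permutation test with adjustment. Its sign turned for the CLR over weeks 1 to 7 (rank correlation = -0.0357) and 2 to 7 (-0.371) and among CD3+ cells (-0.714), for the count among CD3+ cells (-0.143), and for the ratio to CD4 over weeks 1 to 7 (-0.0357) and 2 to 7 (-0.657), among CD3+ cells (-0.595) and among CD127- cells (-0.0476). CD3+ cells of week 0 are 1 cell. Leaving out each library in turn gave a rank correlation of -0.0357 to 0.536 for the CLR, 0.393 to 0.786 for the count, -0.0357 to 0.429 for the ratio and 0.429 to 0.786 for the CD3+ share. Gated cells stayed above the 5 named phenotypes under each alternative. The difference from cells of no phenotype was 0.576 to 0.931 with each library left out and 0.554 with the myeloid exclusion dropped, where it missed the threshold (adjusted p = 0.0781, exact permutation test).

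For treated over untreated week 7, the ratio of mean CD3 counts was 0.986 with no count filter, 0.934 with thresholds per library, 0.977 without KLRG1+ cells, 0.885 among cells with 500 to 2000 counts, 0.747 with thinning and 0.948 by medians, and was called under none of these. The ratio of CD3 to CD4 ratios was 1.56 with thresholds per library, 1.501 with the stricter gate, 1.43 among cells with 500 to 2000 counts and 1.37 with thinning, the last 2 not called. Set against CD90.2 it was 0.533. The cause of these changes was not tested. Untreated weeks 5 and 6 enter none of these ratios, only the range used for a call. Weeks 0 and 1 had the fewest gated cells, 524 and 907.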
